A study of Homo sapiens with 24 samples.

Results

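MHC class I antigen presentation was followed in HCT-116 cells, a human colorectal carcinoma line, through 8 genes: HLA-B, HLA-C, HLA-E, HLA-F, B2M, TAP1, TAP2 and TAPBP. The members were taken by gene name from the 34127 non-control probes of a whole-genome Agilent 1-colour array, which gave 15 probes, of which 13 passed the filter on dim signal. All 8 genes kept at least 1 such probe, among 15154 genes and 18966 probes tested in the series. The cells were a single stably transfected clone with a doxycycline-inducible construct for DN-Tcf4, a Tcf4 lacking the part that binds beta-catenin. The study describes little DN-Tcf4 protein with doxycycline alone and much when butyrate was given too, so Doxy and DoxyNaB differ in its amount as well as in butyrate. Every group came from this clone, so all cells carried the construct. They were left untreated (Ctl), or were given 5 mM sodium butyrate (NaB), 4 ug/ml doxycycline (Doxy) or both (DoxyNaB) for 17.5 hr, in 6 numbered experiments with 1 array per treatment, 24 arrays in all. The design asks what butyrate, a fermentation product that inhibits histone deacetylases, did to these transcripts, and whether induction of DN-Tcf4, which represses Wnt signalling, altered the response.

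MHC class I molecules show peptides from inside the cell to CD8 T cells and natural killer cells. A heavy chain (such as HLA-B and HLA-C, and the less variable HLA-E and HLA-F) folds with beta-2-microglobulin, encoded by B2M. Peptides cut by the proteasome are pumped into the endoplasmic reticulum by a transporter made of TAP1 and TAP2, and tapasin (TAPBP) holds the empty heavy chain next to the transporter while a peptide is loaded. Heavy chain and B2M promoters are known to carry binding sites for interferon regulatory factors, NF-kB and the factors of the SXY module, which include the Y box protein NF-Y. Colorectal tumours often lose parts of this pathway.

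With butyrate, TAP1, TAP2 and TAPBP fell in both comparisons, while 3 of the 5 presenting genes rose in each. In NaB/Ctl, 3 of the 8 genes (HLA-B, HLA-F and B2M) were higher and 3 (TAP1, TAP2 and TAPBP) were lower at an adjusted p under 0.01. In DoxyNaB/Doxy, HLA-E, HLA-F and B2M were higher and the same 3 peptide supply genes were lower. HLA-C passed in neither, and the rises depended on the scaling of the arrays and on the test. The paired t-test named in the methods, after Benjamini-Hochberg adjustment, called 4 members in each comparison, HLA-F higher and TAP1, TAP2 and TAPBP lower. By that test HLA-B (adjusted p = 0.0823) and B2M (0.0231) were lost in NaB/Ctl, and HLA-E (0.0221) and B2M (0.0251) in DoxyNaB/Doxy. In NaB/Ctl the t-test of HLA-B left out experiment 1 (a change of 0.875), whose DoxyNaB spot was an outlier. Its adjusted p thus comes from the other experiments, with a mean change of 0.36. The falls were larger, reaching -2.11 on the log2 scale for TAPBP, whereas no member rose past 2-fold by its brightest probe. Butyrate moved most of the genome, so these counts have to be read against a wide background. Of all genes tested, 40.6% were higher and 29.0% lower in NaB/Ctl, and 38.1% were higher and 30.3% lower in DoxyNaB/Doxy. The members' 3 and 3 of 8 lie near these shares, and the median member change of 0.24 stood beside a median of 0.17 over all genes in NaB/Ctl (0.27 beside 0.11 in DoxyNaB/Doxy).

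Probe sequences are shown first for the class I genes whose probes bear on how far members can be told apart. The paired HLA-B probes, at chr6:31429632-31429691 and chr6:31429642-31429701 (build NCBI36, minus strand, as the files give them), and the second HLA-C probe, which the files place at chr6:31429623-31429682, cover nearly the same stretch. Within a shared window of 30 bases, written 5′ to 3′ with the base that differs in capitals, they read as follows.
HLA-B, first probe: gtcaattcctggaaTttgagagagcaaata
HLA-B, second probe: gtcaattcctggaaGttgagagagcaaata
HLA-C, second probe: gtcaattcctggaaGttgagagagcaaata
Counted from 1 at the 5′ end of the window, the second HLA-B probe differs from the first by T15G, the only mismatch over 50 shared bases. The second HLA-C probe carries the same T15G and matched the second HLA-B probe at all of 41 shared bases, so signals of these 3 probes cannot be assigned to HLA-B or HLA-C alone. The first HLA-C probe lies elsewhere, at chr6:31344596-31344655.

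HLA-F was read by a pair of unrelated probes, at chr6:29801259-29801317 and chr6:29800093-29800152, plus strand. They are shown because they gave different sizes of change.
HLA-F, first probe: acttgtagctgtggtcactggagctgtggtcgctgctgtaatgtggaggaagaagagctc
HLA-F, second probe: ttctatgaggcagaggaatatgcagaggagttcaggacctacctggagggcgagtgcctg
The first HLA-F probe is also annotated in the files with an accession of another class I gene, so cross-hybridisation is possible. B2M, on chromosome 15, was read by 1 probe printed 10 times on each array, at chr15:42795065-42795124, plus strand, which gives it more spots than any other member.
B2M: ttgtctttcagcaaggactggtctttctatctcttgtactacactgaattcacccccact
The brightest probe of HLA-E lies at chr6:30568708-30568767, that of TAP1 at chr6:32921188-32921247, that of TAP2 at chr6:32901200-32901259 and that of TAPBP at chr6:33375696-33375755. Exon and UTR positions of the probes were not determined here.

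**Figure D1:**
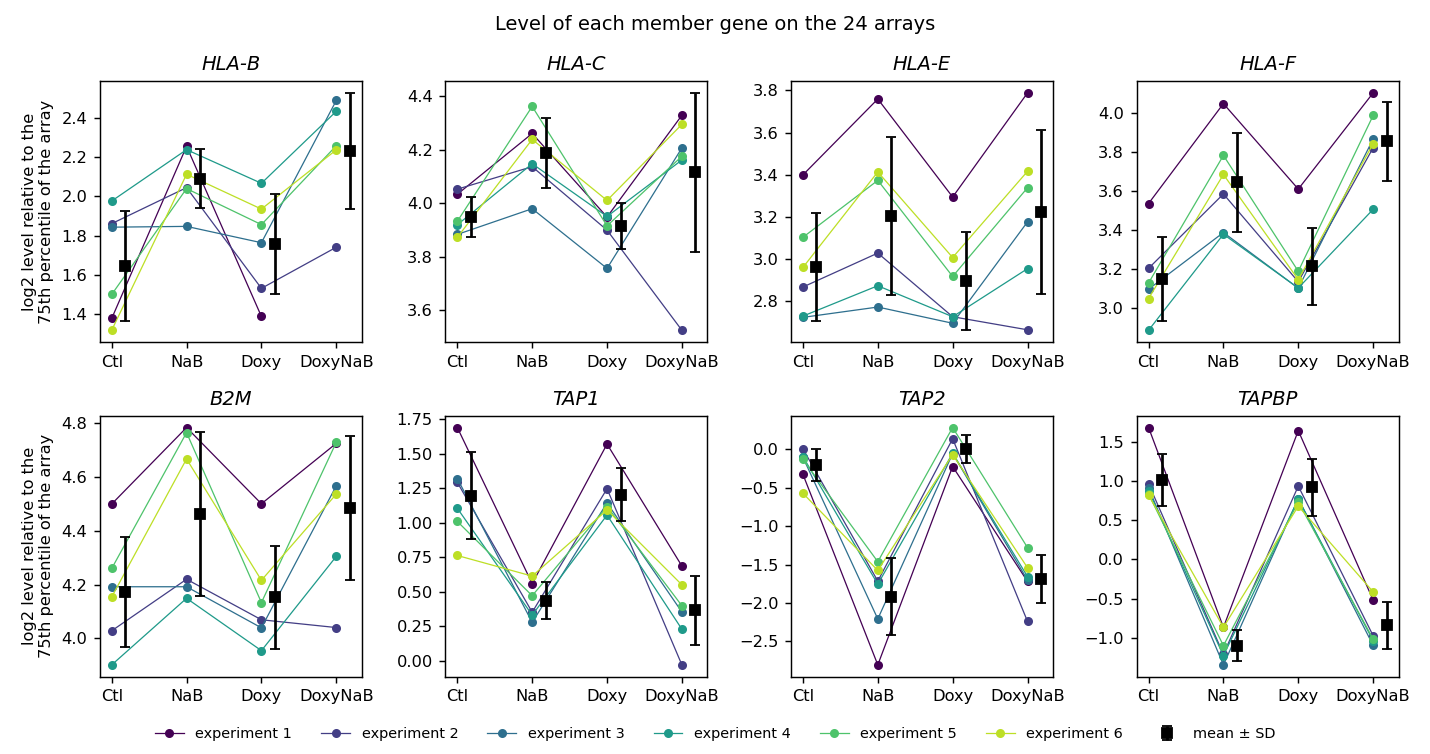
Level of the brightest probe of each member (log2 signal relative to the 75th percentile of its array, vertical axis) in the 4 treatments, with lines joining the arrays of an experiment and squares giving mean ± SD over up to 6 arrays. TAP1, TAP2 and TAPBP fell in both butyrate groups with no overlap with the groups without butyrate, while the heavy chain and B2M groups overlapped. The share of all genes that separate in this way was not counted.

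Levels are log2 signals relative to the 75th percentile of the array, so 0 is the level that 3 in 4 spots lie below, and they were compared within a probe only. Overlap of groups is given as a description, since the share of all genes whose groups separate with butyrate was not counted. Changes are given with a 95% interval from limma with the experiment as a block, and adjusted p-values are Benjamini-Hochberg values over all 18966 probes.

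Among the heavy chains, HLA-F had the clearest rise. Its first probe ranged from 2.88 to 3.54 in Ctl (median 3.11), from 3.38 to 4.05 in NaB (3.64), from 3.101 to 3.61 in Doxy (3.14) and from 3.51 to 4.10 in DoxyNaB (3.86). The groups overlapped, chiefly because experiment 1 was high in every treatment, yet the level was higher with butyrate in 6 of 6 experiments in both comparisons. The change was 0.50 (0.36 to 0.63, limma adjusted p = 1.09e-06) in NaB/Ctl and 0.64 (0.51 to 0.77, limma adjusted p = 3.81e-08) in DoxyNaB/Doxy. Its second probe moved further. There the level lay between -1.43 and -0.49 in Ctl (median -1.003) and between 0.23 and 0.93 in NaB (0.77), and between -1.18 and -0.33 in Doxy (-0.92) and 0.21 and 1.08 in DoxyNaB (0.67). No array with butyrate overlapped an array without it. The corresponding changes were 1.66 (1.44 to 1.88, limma adjusted p = 8.25e-11) and 1.54 (1.32 to 1.76, limma adjusted p = 2.24e-10), each larger than 90.1% of all genes. Of all genes tested, 21.0% rose past 2-fold in NaB/Ctl and 18.7% in DoxyNaB/Doxy.

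HLA-B, a classical heavy chain, ranged by its first probe from 1.32 to 1.98 in Ctl (median 1.67), 1.85 to 2.25 in NaB (2.08), 1.39 to 2.07 in Doxy (1.81) and 1.74 to 2.49 in DoxyNaB (2.26, 5 arrays, since 1 spot was an outlier and was left out of the fit). The change was 0.44 in both comparisons and passed the threshold in NaB/Ctl (0.14 to 0.74, limma adjusted p = 0.00963, higher in 6 of 6 experiments) but not in DoxyNaB/Doxy (0.11 to 0.77, limma adjusted p = 0.0164, 5 of 5). The NaB/Ctl call lay at the threshold and was lost without any one of experiments 1, 4, 5 and 6, with changes from 0.36 to 0.48. The DoxyNaB/Doxy change passed without experiment 2 (0.51, limma adjusted p = 0.00729). The second HLA-B probe gave 0.70 (limma adjusted p = 0.0142) and 0.49 (limma adjusted p = 0.075), neither past the threshold.

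HLA-C did not pass the threshold by either probe. Its first probe ranged from 3.87 to 4.05 in Ctl (median 3.93), 3.98 to 4.36 in NaB (4.19), 3.76 to 4.01 in Doxy (3.93) and 3.53 to 4.33 in DoxyNaB (4.19), where the lowest value was that of experiment 2. The change was 0.24 (0.03 to 0.44, limma adjusted p = 0.0334) in NaB/Ctl and 0.20 (0.00 to 0.41, limma adjusted p = 0.0685) in DoxyNaB/Doxy. Without experiment 2, both passed, at 0.27 (limma adjusted p = 0.000967) and 0.32 (limma adjusted p = 0.000251). HLA-E, the ligand of the natural killer receptor NKG2A, ranged from 2.72 to 3.40 in Ctl (median 2.91), 2.77 to 3.76 in NaB (3.20), 2.69 to 3.29 in Doxy (2.82) and 2.66 to 3.79 in DoxyNaB (3.26). The groups overlapped, and most of the spread was between experiments. Its change was 0.24 (0.07 to 0.41, limma adjusted p = 0.0139, higher in 6 of 6) in NaB/Ctl and 0.33 (0.15 to 0.50, limma adjusted p = 0.00156, higher in 5 of 6) in DoxyNaB/Doxy. The NaB/Ctl change passed without experiment 2 or 3, and the DoxyNaB/Doxy call was lost without experiment 1 or 5.

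B2M, the light chain shared by all class I molecules, ranged from 3.90 to 4.50 in Ctl (median 4.17), 4.15 to 4.78 in NaB (4.44), 3.95 to 4.50 in Doxy (4.10) and 4.04 to 4.73 in DoxyNaB (4.55). It rose by 0.29 (0.12 to 0.46, limma adjusted p = 0.0031) in NaB/Ctl and 0.33 (0.16 to 0.50, limma adjusted p = 0.00108) in DoxyNaB/Doxy, each time higher in 5 of 6 experiments. In NaB/Ctl the call was lost without any one of experiments 1, 4, 5 and 6, with changes from 0.25 to 0.30. Among all genes, the B2M change stood above 55.0% of genes in NaB/Ctl and above 59.0% in DoxyNaB/Doxy.

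The transporter genes fell. TAP1 ranged from 0.76 to 1.69 in Ctl (median 1.20) and from 0.28 to 0.61 in NaB (0.41), and from 1.06 to 1.57 in Doxy (1.13) and -0.03 to 0.69 in DoxyNaB (0.38). Groups with and without butyrate did not overlap. The change was -0.76 (-0.99 to -0.53, limma adjusted p = 5.1e-06) in NaB/Ctl and -0.84 (-1.07 to -0.61, limma adjusted p = 1.61e-06) in DoxyNaB/Doxy, lower in 6 of 6 experiments. TAP2 ranged from -0.57 to 0.01 in Ctl (median -0.12), -2.80 to -1.46 in NaB (-1.74), -0.22 to 0.28 in Doxy (-0.05) and -2.24 to -1.28 in DoxyNaB (-1.68), again without overlap. It fell by 1.72 on the log2 scale in NaB/Ctl (95% interval -2.06 to -1.37, limma adjusted p = 2.78e-08) and by 1.69 in DoxyNaB/Doxy (-2.04 to -1.35, limma adjusted p = 3.44e-08). Only 3.73% of genes changed more negatively in NaB/Ctl and 4.45% in DoxyNaB/Doxy. A second TAP2 probe was well above background on 2 of 24 arrays and was not tested.

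TAPBP, which bridges heavy chain and transporter, fell most by its brightest probe. It ranged from 0.82 to 1.68 in Ctl (median 0.89) and -1.34 to -0.86 in NaB (-1.15), and from 0.68 to 1.64 in Doxy (0.77) and -1.09 to -0.41 in DoxyNaB (-0.99). Experiment 1 was the high value in both groups without butyrate, and groups with and without butyrate stayed apart. The change was -2.11 (-2.34 to -1.88, limma adjusted p = 6.5e-12) in NaB/Ctl, which only 1.67% of genes exceeded in that direction, and -1.76 (-1.99 to -1.53, limma adjusted p = 7.43e-11) in DoxyNaB/Doxy. TAPBP and TAP2 were the members that fell past 2-fold, as did 11.5% of all genes in NaB/Ctl and 12.5% in DoxyNaB/Doxy. A second TAPBP probe fell by 1.27 and 1.60 on the log2 scale (limma adjusted p = 1.76e-05 and 1.16e-06). The third was dimmer, with 3 of the 6 DoxyNaB arrays well above background, and gave -0.64 (limma adjusted p = 0.0628) and -1.17 (limma adjusted p = 0.00202). The last TAPBP probe reached that mark on 9 of 24 arrays and was not tested.

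**Figure D2:**
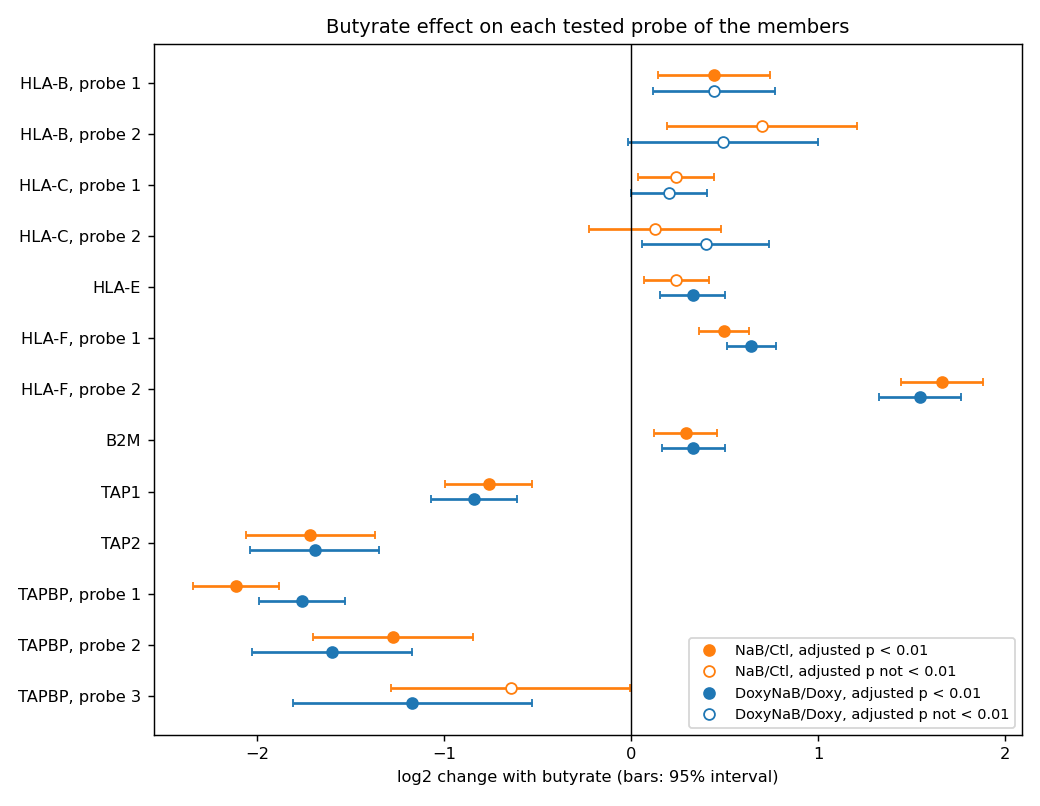
log2 change with butyrate (horizontal axis, bars are 95% intervals from limma) for the 13 tested probes of the members, in NaB/Ctl and in DoxyNaB/Doxy, with filled points at an adjusted p under 0.01. All 8 probes of heavy chains and B2M lie above 0 and all 5 of TAP1, TAP2 and TAPBP below it. The third TAPBP probe was tested only through its arrays without butyrate.

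Arrays were scanned on 4 dates, and those of experiments 2 to 4, scanned together, detected more probes (78.3 to 88.1% well above background) than the others (52.5 to 62.4%). In experiment 1 the butyrate arrays shared a slide and a scan date with no array without butyrate. There slide, scan date and butyrate cannot be told apart. Experiments 2 to 6 had a slide each, with all arrays of an experiment scanned on the same date. Within experiments 2 to 4, TAP1, TAP2 and TAPBP changed by -0.92, -1.83 and -2.17 in NaB/Ctl and HLA-B, HLA-F and B2M by 0.15, 0.39 and 0.15, of which the last 3 did not pass the threshold. Within experiments 5 and 6, TAP1 changed by -0.34 (limma adjusted p = 0.0639) in NaB/Ctl, less than the -0.76 over all experiments. There HLA-B changed by 0.67 (limma adjusted p = 0.00324), HLA-F by 0.65 (limma adjusted p = 0.00189) and B2M by 0.51 (limma adjusted p = 0.00851), all larger than in experiments 2 to 4. The sets of experiments were not tested against each other.

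The direction of the rises depended on how arrays were scaled, whereas the falls kept their direction and changed in size. When signals were floored at 5 and scaled to the array median instead, the shift of the array changed. This moved the median of all genes from 0.17 to -0.58 in NaB/Ctl, and HLA-B, HLA-F and B2M then stood at -0.31, -0.25 and -0.46 and HLA-C and HLA-E at -0.51 each. All 5 presenting genes were thus below 0, like TAP1 (-1.51), TAP2 (-2.47) and TAPBP. In DoxyNaB/Doxy the median of all genes moved from 0.11 to -0.45, with HLA-E at -0.23, B2M at -0.23, HLA-B at -0.13, HLA-C at -0.36 and HLA-F at 0.08. Relative to the median of all genes, B2M was 0.12 higher in NaB/Ctl under the main scaling and 0.13 higher under this one, and HLA-F 0.33 higher under both. In the same comparison TAPBP lay 2.28 below that median under either scaling. After quantile normalization the 5 heavy chain and B2M genes all passed the threshold as higher in both comparisons. After normexp background correction HLA-F alone of them passed, in both comparisons. There HLA-B (0.47, limma adjusted p = 0.0299) and B2M (0.40, limma adjusted p = 0.0199) were lost in NaB/Ctl, HLA-E (0.17, limma adjusted p = 0.226) and B2M (0.21, limma adjusted p = 0.174) in DoxyNaB/Doxy, and TAP2 changed by -1.35 in NaB/Ctl.

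**Figure D3:**
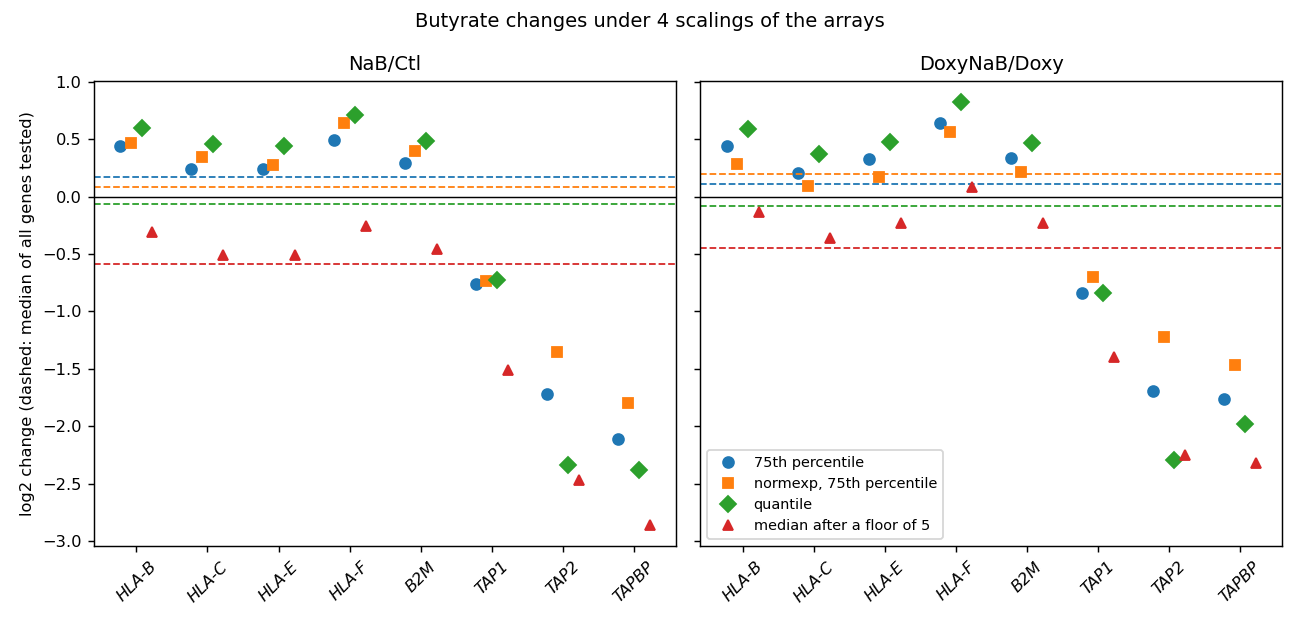
log2 change of each member with butyrate (vertical axis) under 4 scalings of the arrays, with the median of all genes under each as a dashed line. The 5 presenting genes lie on either side of 0 depending on the scaling (HLA-F in DoxyNaB/Doxy stays above 0) but above the dashed line of their own scaling except HLA-C and HLA-E after normexp in DoxyNaB/Doxy, whereas TAP1, TAP2 and TAPBP lie below it in every case.

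Doxycycline moved the Wnt target AXIN2, which was lower in 6 of 6 experiments both in Doxy/Ctl (-0.58, limma adjusted p = 0.00289) and in DoxyNaB/NaB (-2.52, limma adjusted p = 2.63e-11). The TCF7L2 probe, for the gene that encodes Tcf4, changed by 2.96 in DoxyNaB/NaB (limma adjusted p = 3.64e-05), by 4.04 in DoxyNaB/Doxy (limma adjusted p = 1.07e-08) and by -0.17 in Doxy/Ctl (limma adjusted p = 0.921). None of the 8 members passed the threshold in Doxy/Ctl (0 at an unadjusted p under 0.05), in DoxyNaB/NaB (2 at an unadjusted p under 0.05) or in the interaction, the butyrate change without doxycycline minus that with it (1 at an unadjusted p under 0.05). The methods' t-test called 0 in each as well. Of all genes, 0.554% passed in Doxy/Ctl, 2.73% in DoxyNaB/NaB and 1.36% in the interaction. The member changes ranged from -0.09 to 0.21 in Doxy/Ctl and from -0.07 to 0.26 in DoxyNaB/NaB, with 95% half-widths between 0.13 and 0.35. In DoxyNaB/NaB the first HLA-F probe was higher in 6 of 6 experiments (0.21, 0.08 to 0.34, limma adjusted p = 0.0686), against 0.02 by the second probe. The brightest TAPBP probe was also higher in 6 of 6 (0.26, 0.03 to 0.49, limma adjusted p = 0.244). The interaction was most negative for TAPBP, at -0.35 (-0.68 to -0.03, limma adjusted p = 0.358), below 0 in 6 of 6 experiments. The other TAPBP probes gave 0.33 and 0.53, of the opposite sign, and neither passed. The second HLA-B probe was higher in 6 of 6 experiments in Doxy/Ctl (0.59, 0.08 to 1.10, limma adjusted p = 0.303), against 0.11 by the first.

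Further class I genes of the MHC moved like the heavy chains. HLA-G, a heavy chain known from the placenta, and the pseudogene HLA-J were higher, by 0.32 each in NaB/Ctl and by 0.38 and 0.42 in DoxyNaB/Doxy. The median change over all genes was 0.17 in NaB/Ctl and 0.11 in DoxyNaB/Doxy, where 40.6% and 38.1% of all genes were higher. HLA-G and HLA-J were read under the main scaling only. HLA-L was not tested, and no probe was named HLA-H. Sequence is shared widely among class I genes, so these probes may read one another's transcripts.

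Upstream of the transporter, the proteasome subunits differed in direction. Of the 5 immunoproteasome and activator genes, PSMB8 and PSMB9, catalytic subunits that replace the standard ones after interferon, rose by 2.40 and 2.24 in NaB/Ctl (limma adjusted p for PSMB9 = 5.16e-10). PSMB9 lay between -2.59 and -1.34 in Ctl and between 0.27 and 0.74 in NaB. PSMB8 was dim without butyrate, with 3 of 6 Ctl and 4 of 6 Doxy arrays well above background. It passed the filter only through its butyrate arrays, so a rise was favoured and its 2.40 is a description only. PSMB10, the third such subunit, fell by 1.69 on the log2 scale (limma adjusted p = 6.75e-12), and the activator genes PSME1 and PSME2 stood at 0.05 and -0.18 without passing. All 3 constitutive catalytic subunits fell in both comparisons, PSMB5 by 1.60, PSMB6 by 0.66 and PSMB7 by 0.36 on the log2 scale in NaB/Ctl. Over all genes 40.6% were higher and 29.0% lower in NaB/Ctl, and 38.1% and 30.3% in DoxyNaB/Doxy. In both comparisons 2 of the 5 immunoproteasome and activator genes were higher and 1 lower. Their higher share thus lay near that of all genes.

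Of 7 tested genes for loading and folding partners, 2 were higher and 2 lower in NaB/Ctl. That is 28.6% each, beside 40.6% higher and 29.0% lower over all genes. HSPA5, the chaperone BiP, rose by 0.82 and CALR, calreticulin of the loading complex, by 0.26. CANX, calnexin, fell by 0.56 and ERAP2, a peptide-trimming aminopeptidase, by 1.51 on the log2 scale. ERAP2 was dim with butyrate, well above background on 3 of 6 NaB arrays, and it filled a treatment only without butyrate. The filter thus favoured a fall for ERAP2. In DoxyNaB/Doxy HSPA5 and CALR were higher and CANX lower. The tapasin relative TAPBPL was not tested, being well above background on 16 of 24 arrays without filling any treatment.

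Among 14 tested transactivators of class I promoters, 8 were lower and 2 higher in both comparisons (57.1% and 14.3%). Over all genes 29.0% were lower and 40.6% higher in NaB/Ctl, and 30.3% and 38.1% in DoxyNaB/Doxy. NFKB1, which encodes the p50 subunit of NF-kB, fell by 3.11, USF2 by 1.80, ATF1 by 1.31 and the Y box subunit NFYC by 0.88 on the log2 scale in NaB/Ctl. The higher pair was NFYA, another Y box subunit, at 0.78, and RELA, the p65 subunit of NF-kB, at 0.29. NLRC5, the class I transactivator, was well above background on 15 of 24 arrays and CIITA, the class II transactivator, on 13, and neither was tested.

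Interferon receptors and signalling genes were mostly higher, 8 of 12 tested in both comparisons, with 1 lower in NaB/Ctl and 2 in DoxyNaB/Doxy. The higher share of 66.7% stood beside 40.6% of all genes in NaB/Ctl and 38.1% in DoxyNaB/Doxy, and was not tested. The lower shares were 8.33% beside 29.0% of all genes in NaB/Ctl and 16.7% beside 30.3% in DoxyNaB/Doxy. The receptor chain IFNGR1 rose by 1.49 in NaB/Ctl and the kinase JAK1 by 1.40. The lower gene was IFNGR2, the second chain of the same receptor, at -2.42, joined in DoxyNaB/Doxy by IFNAR1 at -0.52.

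Class I-like molecules, several of them ligands of the activating receptor NKG2D, gave 6 higher and 2 lower of 11 tested in both comparisons (54.5% and 18.2%). Over all genes 40.6% were higher and 29.0% lower in NaB/Ctl, and 38.1% and 30.3% in DoxyNaB/Doxy. AZGP1, a secreted class I-like protein, changed by 3.40, ULBP2 by 2.07, MICA by 1.43 and PROCR by -1.06 in NaB/Ctl. AZGP1 was well above background on only 3 of 6 Ctl arrays, and it filled a treatment only with butyrate. RAET1E, the other lower gene, was not well above background on any butyrate array and was at least 2.18-fold lower in NaB than in Ctl. It was thus tested only through its arrays without butyrate. ULBP1 was the gene of this list that passed in Doxy/Ctl (0.75, limma adjusted p = 0.000532) and in the interaction (0.92, limma adjusted p = 0.0011).

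MHC class II genes, whose products present peptides taken up from outside, were higher for 12 of 13 tested in both comparisons, with medians of 2.21 and 2.04. The shares over all genes tested were 40.6% and 38.1%. HLA-DRA, HLA-DRB4, HLA-DRB5, HLA-DPB1 and HLA-DMB filled a treatment above background only with butyrate. The filter thus favoured a rise for them, and the count and medians are a description only. HLA-DPB1 changed by 3.55, HLA-DRA by 3.19 and HLA-DRB4 by 3.08 in NaB/Ctl, each well above background on only 3 or 4 of 6 Ctl arrays. HLA-DRB5 was not well above background on any Ctl array and was at least 5.92-fold higher in NaB. The MHC region (chr6:29000000-34000000, NCBI36) held 142 tested genes besides the members, with its class II genes included. They gave 38.7% higher and 33.1% lower in NaB/Ctl and 35.2% and 32.4% in DoxyNaB/Doxy, with medians of 0.12 and 0.08. That region holds 7 of the 8 members, the class II genes and the immunoproteasome genes PSMB8 and PSMB9, the latter beside TAP1 and TAP2.

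**Figure D4:**
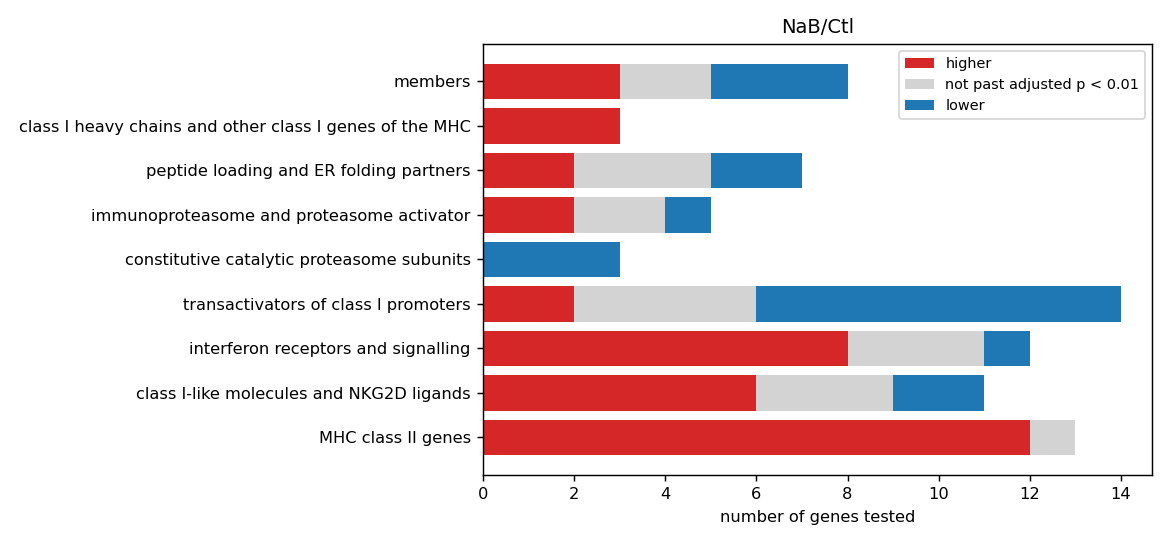
Number of tested genes (horizontal axis) that were higher, lower or not past an adjusted p under 0.01 in NaB/Ctl, for the members and for 8 lists of pathway genes. Class II genes were higher for 12 of 13 and the 3 constitutive proteasome subunits were all lower, while the members split into 3 higher, 2 not past and 3 lower. Over all genes tested 40.6% were higher and 29.0% lower, and some class II genes were tested only through their butyrate arrays.

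Markers of other cells were checked, since leukocytes carry much class I and class II. Of 7 leukocyte markers 3 were tested and all 3 were higher with butyrate, among them CD14 by 1.35 and CD68 by 0.44 in NaB/Ctl. Over all genes 40.6% were higher in NaB/Ctl and 38.1% in DoxyNaB/Doxy. The summed signal of the 3 ran from 0.227 to 0.373 of the 75th percentile in Ctl, 0.622 to 0.891 in NaB, 0.243 to 0.371 in Doxy and 0.648 to 0.97 in DoxyNaB, with no overlap between arrays with and without butyrate. PTPRC, CD3E and ITGAM did not fill any treatment above background. All cultures were of the single HCT-116 clone described at the start, and why the 3 tested leukocyte markers rose was not tested. Of 6 fibroblast markers 1 was tested, COL1A1, which rose by 1.09, and of 4 endothelial markers 2, with VWF higher by 2.77. VWF was well above background on only 3 of 6 Ctl arrays, and it filled a treatment only with butyrate. The colon epithelial markers, 7 of 9 tested, summed to between 210.0 and 502.0 on all arrays, with 3 higher and 2 lower in NaB/Ctl (42.9% and 28.6%). The shares over all genes were 40.6% higher and 29.0% lower. In an extract of whole cultures, fewer expressing cells and less RNA per cell cannot be told apart.

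The genes most alike in pattern were found by correlating levels, centred within each experiment, over the arrays, as a description in which all points share arrays. The 3 closest to HLA-E were HLA-J (r = 0.966), NOC2L (0.965) and HLA-G (0.964), and those to B2M were HLA-G (0.962), FTL (0.958) and COXFA4 (0.956). HLA-F was closest to LOC100131785 (0.984), SBSN (0.977) and CYSRT1 (0.976), and HLA-C to EMC7 (0.947), SLC41A3 (0.922) and LOC730202 (0.915). HLA-B, over 23 arrays, was closest to FOXI2 (0.934) and to a pair of probes with no gene name (0.932 and 0.928). For TAP1 the closest were WNT3A and ACAD9 (0.983 each) and GLOD4 (0.981), for TAP2 U2SURP (0.992), NFXL1 (0.99) and TMEM109 (0.989), and for TAPBP RARG (0.994), MTA1 and RBM10 (0.993 each).

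Promoters are shown for 2 members that rose and the 3 that fell, chosen because they hold the same letter pattern. Of the 8 members 7 had an entry in the RefSeq promoter table (GRCh38.p14). The 250 bases before the annotated start are printed 5′ to 3′ on the gene's strand, with capitals for matches to any of 5 motifs searched on both strands: TTTCNNTTT (the core of the interferon-stimulated response element), GGGNNTNCC (NF-kB), TGACGT (CRE), CCAAT (Y box) and ATCAAAG (TCF). For B2M the window is chr15:44711267-44711516, for HLA-F chr6:29723184-29723433, for TAP1 chr6:32853705-32853954, for TAP2 chr6:32838740-32838989 and for TAPBP chr6:33314079-33314328, the last 3 on the minus strand.
B2M: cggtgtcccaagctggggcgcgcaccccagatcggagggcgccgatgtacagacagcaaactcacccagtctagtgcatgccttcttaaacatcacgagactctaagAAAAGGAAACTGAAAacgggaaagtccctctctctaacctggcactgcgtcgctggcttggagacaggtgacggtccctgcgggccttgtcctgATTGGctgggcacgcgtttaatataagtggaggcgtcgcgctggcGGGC
HLA-F: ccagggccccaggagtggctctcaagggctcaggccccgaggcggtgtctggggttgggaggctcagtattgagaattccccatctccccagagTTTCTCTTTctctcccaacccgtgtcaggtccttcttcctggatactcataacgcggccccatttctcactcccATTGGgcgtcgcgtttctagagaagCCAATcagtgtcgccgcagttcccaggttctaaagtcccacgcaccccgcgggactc
TAP1: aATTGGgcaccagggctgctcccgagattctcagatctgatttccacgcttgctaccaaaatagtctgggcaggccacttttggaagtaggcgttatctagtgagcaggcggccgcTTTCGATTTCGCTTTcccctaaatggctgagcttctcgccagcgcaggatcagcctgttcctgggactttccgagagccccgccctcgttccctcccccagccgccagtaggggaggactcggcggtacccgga
TAP2: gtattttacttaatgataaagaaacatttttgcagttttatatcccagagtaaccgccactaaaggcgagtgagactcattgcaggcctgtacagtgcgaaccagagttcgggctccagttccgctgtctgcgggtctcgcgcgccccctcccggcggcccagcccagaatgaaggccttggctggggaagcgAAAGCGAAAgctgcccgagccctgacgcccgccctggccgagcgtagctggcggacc
TAPBP: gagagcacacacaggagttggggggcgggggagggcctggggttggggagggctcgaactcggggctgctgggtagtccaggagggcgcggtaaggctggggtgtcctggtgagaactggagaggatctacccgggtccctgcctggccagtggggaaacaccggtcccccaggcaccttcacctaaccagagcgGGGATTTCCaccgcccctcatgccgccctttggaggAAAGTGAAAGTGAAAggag
TTTCNNTTT was found in 5 of the 7 members with an entry, those printed, and not in HLA-B or HLA-C. It begins 156 bases before the start in HLA-F, 57 in TAP2, at 134 and 128 in TAP1, at 143 and 137 in B2M and at 19 and 13 in TAPBP, where paired matches overlap. The GGGNNTNCC match of B2M begins 4 bases before the start and runs past the printed window. Among 35116 promoters of the same 300-base length (250 before and 50 after the start), 10.5% held TTTCNNTTT. CCAAT was found in HLA-B, HLA-C, HLA-F, B2M and TAP1 and in 34.6% of all promoters, and GGGNNTNCC in HLA-B, B2M and TAPBP and in 20.5%. Only this 9-letter pattern was searched for NF-kB, and only TTTCNNTTT for the interferon element. NF-kB sites of another length or spacing, in TAP1 or B2M for example, would not be marked. Likewise, an interferon element with other letters, in HLA-B or HLA-C for example, would not be marked. TGACGT (7.98% of promoters) was found in none of the 7, and ATCAAAG (2.62%) in a second TAP1 entry alone. The members with the interferon-element letters thus include genes that rose and genes that fell, and a match of letters is no evidence of binding.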

How the data were processed

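Total RNA of 24 cultures (4 treatments in 6 experiments) was hybridised to Agilent 1-colour arrays of 44495 spots. The deposited files are scanner output of Agilent Feature Extraction 9.5.3.1, and the authors' intensity values (processed signal, linear, background-subtracted and spatially detrended by that program) were used. Control and outlier spots were left out, spots of a probe were averaged, and log2 intensity was taken relative to each array's 75th percentile (380.2 to 1323 units, which limits the precision of dim probes). A probe was tested if well above background (a flag in the file) on all 6 arrays of a treatment. limma 3.58.1 (R 4.3.3) was fitted to all arrays with the experiment as a block, as the labels number experiments and the study's methods paired them. Same-numbered arrays deviated together in all pairs but 1 (r = -0.22, the next lowest 0.22). Changed means an adjusted p under 0.01. A gene is represented by its brightest tested probe. The study's methods call the 6 experiments biological replicates. Members and gene lists were chosen with earlier results of these data known. The text names all members, up to 4 genes of a list by size of change, every gene behind a count of 5 or fewer, and the 3 genes closest to each member in pattern. Probe names were updated through RefSeq accessions (24824 of 34127 probes). The fit was tested on simulated data. The alternatives tried were other scalings, filters, blocks and thresholds, the methods' paired t-test, the mean over a gene's probes, and leaving out experiments or arrays. Some genes of the lists are not reported here.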

Additional observations from a re-analysis of the deposited data

Results flagged for a closer look

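Among 104 sets of levels or changes over the experiments (13 probes, 4 treatments and 4 comparisons), 14 held a value that stood far from the other experiments of its set. Chance gives about 1 in 20. Experiment 1 gave 9 of them, among these the second HLA-B probe in NaB (-1.04) and its DoxyNaB/NaB change (2.25), the second HLA-C probe in NaB (3.18) and its NaB/Ctl change (-0.77), the first HLA-F probe in Doxy (3.61), TAP1 in Doxy (1.57) and the brightest TAPBP probe in Ctl (1.68) and Doxy (1.64). The dimmest tested TAPBP probe was also low in Ctl in experiment 1 (-4.31), and its Doxy/Ctl change was apart in experiment 4 (0.67). In experiment 2, whose DoxyNaB array had the brightest negative controls, HLA-C was low in DoxyNaB (3.53), with DoxyNaB/Doxy changes of -0.37 and -0.18 by its probes, and TAP2 changed by -2.38 in DoxyNaB/Doxy.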

How the results depend on the processing

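The falls of TAP1, TAP2 and TAPBP kept their direction under every alternative run, though TAP1 missed the threshold in NaB/Ctl in experiments 5 and 6 alone, and the rises did not. Of the 8 members, 6 were called in each butyrate comparison. Flooring signals at 5 and scaling to the array median called 3 in each and turned the called NaB/Ctl changes of HLA-B (-0.31), HLA-F (-0.25) and B2M (-0.46) and the DoxyNaB/Doxy changes of HLA-E (-0.23) and B2M (-0.23), as that scaling lowers the median of all genes. It also put the uncalled HLA-C and HLA-E (-0.51 each) in NaB/Ctl and HLA-B (-0.13) and HLA-C (-0.36) in DoxyNaB/Doxy below 0. Experiments 2 to 4 alone called 3 in NaB/Ctl and experiments 5 and 6 alone 5, and the cause was not tested. A fold over 2 called 2 in each. Leaving out 1 experiment gave 4 to 8 calls in NaB/Ctl and 5 to 8 in DoxyNaB/Doxy, and 0 in the doxycycline comparisons and the interaction. Without the replicate block 4 members were called in NaB/Ctl and 5 in DoxyNaB/Doxy. B2M was lost in both (limma adjusted p = 0.0802 and 0.0476), HLA-B in NaB/Ctl and HLA-E in DoxyNaB/Doxy, where HLA-B was gained. Over 827 single-gene values under alternatives, 758 kept their side of the threshold, 45 lost it, 19 gained it and 5 called values reversed. Dim probes of TAP2 and TAPBP limit what can be said of their other probes.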
